A study of Mus musculus with 10 samples.

Results

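The proteasome and the cytosolic chaperonin are large multi-subunit machines of protein turnover and folding, and their transcripts were followed here in cultured neural stem and progenitor cells (NSC/NPCs). The members were the listed genes whose symbol is that of a proteasome subunit (Psma, Psmb, Psmc or Psmd with a number, without the inducible subunits Psmb8, Psmb9 and Psmb10), of the activators Psme3 and Psme4, or of a chaperonin subunit (Tcp1 and Cct2 to Cct8). This gave 46 of 48795 listed genes: 14 constitutive genes of the 20S core, 2 tissue-restricted core genes, 17 structural genes and 3 assembly factors of the 19S regulatory particle, 2 activators and 8 chaperonin genes. Of these, 44 passed the filter on low counts and were tested.

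RNA-seq libraries came from NSC/NPC cultures of the subependymal zone (SEZ) of mice aged 10 weeks, and asked how expression changes when dividing cells leave the cell cycle, and whether this depends on the cell cycle inhibitor p27, the product of Cdkn1b. There were 3 wild-type (WT) libraries of proliferating neurospheres (WT PRO), which are floating aggregates kept with 20 ng/ml EGF and 10 ng/ml FGF, and 3 WT libraries of cells at 2 + 1 DIV (WT DIFF), together with 2 libraries of each stage from cultures labelled p27KO (p27KO PRO and p27KO DIFF). For 2 + 1 DIV, cells of secondary neurospheres were plated at 40000 cells/cm2 on Matrigel with FGF for 2 days and then kept without mitogens in 2% fetal bovine serum for 24 h. Neurospheres were taken after 3 DIV by the labels and the methods, and the study's results text gives another age. All cultures were grown in vitro, and attachment, serum and loss of mitogens change together between the stages, so that these cannot be told apart. The p27KO mice carry a germline Cdkn1b mutation on a C57BL/6J background. The labels call the libraries biological replicates without naming animals, so p-values measure the spread between these samples. Totals were between 19190068 and 25291674 estimated counts per library. Levels are given as CPM, the counts of a gene scaled to the total of its library.

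The targeted gene was not lost in the libraries labelled p27KO. Cdkn1b had 103, 105 and 112.5 CPM in WT PRO, 206.5, 205 and 209 CPM in WT DIFF, 114 and 90.7 CPM in p27KO PRO, and 140.2 and 137 CPM in p27KO DIFF. The counts are for the gene as a whole, and which part of it the mutation removes is not given in the sources used here. The libraries of both genotypes overlapped in neurospheres, and both p27KO DIFF libraries lay below every WT DIFF library. The free-text descriptions of these 4 samples also name WT cells, against their titles and genotype field, so they are called libraries labelled p27KO and every genotype direction rests on those labels. Xist was at 2258 to 3595 CPM in the libraries labelled p27KO and at most 2.57 CPM in WT, whereas 4 Y-linked genes together had 189 to 533 CPM in WT and at most 0.585 CPM in the others, so that genotype and sex cannot be told apart.

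The culture label was compared with markers. The 6 stem and progenitor markers were all tested and summed to 6371 to 8157 CPM per library. Nes, a marker of neural progenitors, averaged 1732 CPM in WT PRO and 195 CPM in WT DIFF. Of the list, Nes and Vim were DOWN in WT, Msi1 (2.46) and Slc1a3 (1.63) were UP on the log2 scale, and Fabp7 (0.52) and Sox9 (-0.10) did not pass. Gfap, of astrocytes and adult stem cells, averaged 0.613 CPM in WT PRO and 111 CPM in WT DIFF. The 6 cycling markers summed to 1972 to 2146 CPM in WT PRO, 138 to 265 CPM in WT DIFF, 2117 and 2245 CPM in p27KO PRO, and 758 and 652 CPM in p27KO DIFF. The 5 astrocyte markers summed to means of 519 CPM in WT PRO and 1911 CPM in WT DIFF, the 6 neuronal markers (Map2 above all) to 1334 and 1587 CPM, the 6 oligodendrocyte markers to 125 and 132 CPM, and the 4 ependymal markers to 17.3 and 92.7 CPM, nearly all of it Foxj1 (16.7 and 90.9 CPM). All 5 microglial markers were under 1 CPM in every library, and the endothelial markers Cdh5 and Cldn5 were at 0. The 6 endothelial and mural markers summed to means of 2.64 CPM in WT PRO and 11.1 CPM in WT DIFF, of which Kdr had 1.91 and 7.62 CPM and was UP in both genotypes, and Pdgfrb had 0.176 and 2.98 CPM and was not tested. In bulk libraries fewer cells of a type and less RNA per cell cannot be told apart, and the part of these marker differences in the results below was not tested.

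The 26S proteasome degrades proteins that carry ubiquitin chains. Its 20S core is a barrel of alpha and beta rings, in which 3 beta subunits are proteolytic, and its 19S regulatory particle binds the ubiquitin chain, removes it and unfolds the substrate with a ring of ATPases. The chaperonin, TRiC or CCT, is a double ring of 8 related subunits that folds newly made proteins, actin and tubulin above all. In dividing cells the proteasome destroys cyclins and the inhibitor p27 itself.

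From neurospheres to 2 + 1 DIV, transcripts of both machines fell. In WT, 40 of the 44 tested members were DOWN, 1 was UP and 3 did not pass an adjusted p of 0.05 (two-sided quasi-likelihood test of edgeR, p-values adjusted after Benjamini and Hochberg over 12859 genes, which gave every adjusted p below, with SE for the standard error of a log2 fold change). Among all genes tested 33.9% were DOWN and 33.5% UP. For 40 members every WT DIFF library lay below every WT PRO library, against 35.6% of all genes. The median log2 fold change was -0.54 for the 14 core genes, -0.54 for the 17 structural regulatory genes and -1.02 for the 8 chaperonin genes, against 0.00 for all genes, whose lower quartile was at -0.55. The same 40 members were DOWN in the libraries labelled p27KO. Psma4 passed there only narrowly (-0.27, adjusted p = 0.047). Its call was lost with DESeq2, with the other scalings and with thinned counts. It was also lost without any single WT library other than WT DIFF replicate 3. The fit limited to p27KO libraries lost the calls of Psma4, Psmb1, Psmd11, Psma6 and Psmd9.

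**Figure D1:**
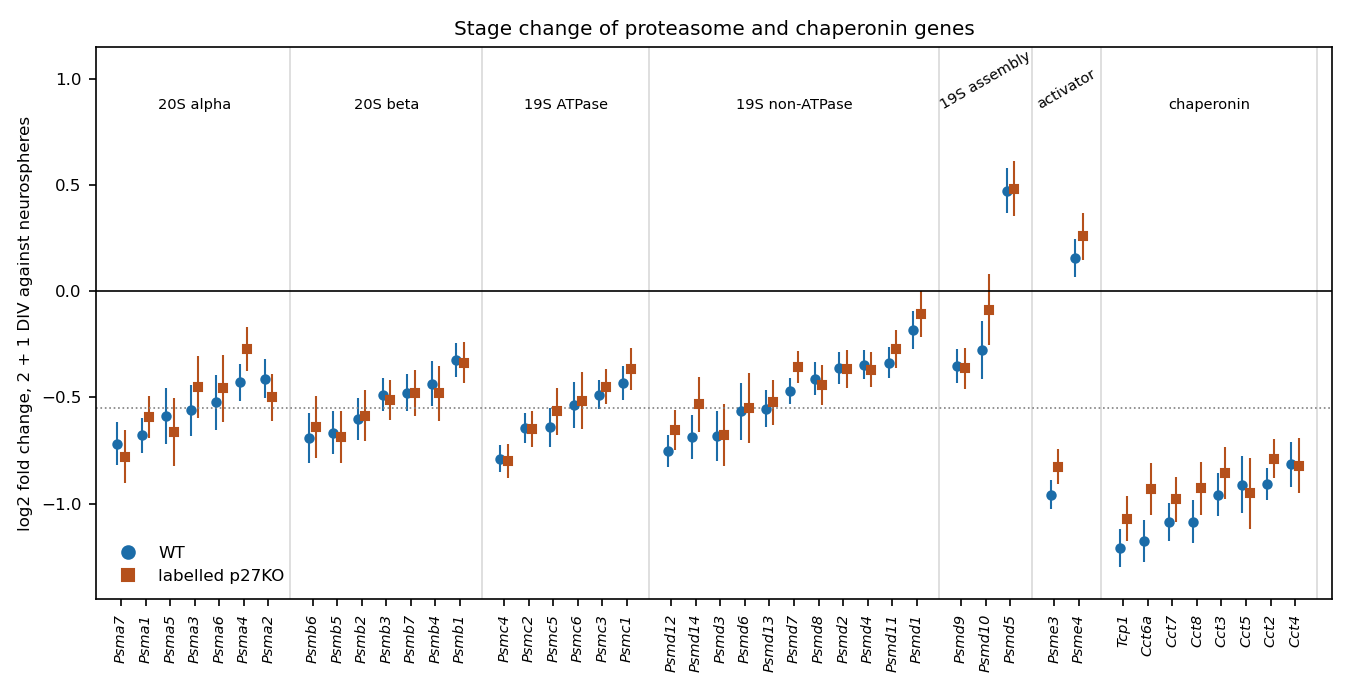
Log2 fold change from neurospheres to 2 + 1 DIV (y axis) for each of the 44 tested members (x axis), with bars of 1 standard error, in WT (circles) and in libraries labelled p27KO (squares); the dotted line is the lower quartile of all genes in WT, at -0.55. Core and structural regulatory genes lie between -0.80 and -0.11, chaperonin genes between -1.21 and -0.79, and Psmd5 and Psme4 stand above 0 in both genotypes.

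All 14 genes of the core were DOWN in WT. The 7 alpha subunits, which form the outer rings and the gate, had log2 fold changes from -0.72 (Psma7) to -0.41 (Psma2), and the 7 beta subunits from -0.69 (Psmb6) to -0.32 (Psmb1). Psmb5 (GRCm38 chromosome 14, 54614119 to 54618022, minus strand) encodes the chymotrypsin-like catalytic subunit. It had 64.9, 60.1 and 62.5 CPM in WT PRO and 43.0, 33.0 and 43.2 CPM in WT DIFF, a change of -0.67 on the log2 scale (SE 0.10, adjusted p = 0.00024). All 3 WT DIFF libraries were below the lowest WT PRO library, replicate 2 being the lowest. Psmb6, the caspase-like subunit, had 129.5, 99.0 and 98.5 CPM in WT PRO and 75.4, 61.9 and 66.9 CPM in WT DIFF, a change of -0.69 on the log2 scale (SE 0.12, adjusted p = 0.00056). Psmb7, the trypsin-like subunit, had 135, 144 and 155 CPM in WT PRO and 105, 98.1 and 112 CPM in WT DIFF, a change of -0.48 on the log2 scale (SE 0.09, adjusted p = 0.00091). The stages did not overlap for either gene, and the high PRO value of Psmb6 was that of replicate 1.

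The variants of the core that are restricted to other tissues were near 0. Psma8, of the testis, had 1 count in 1 library and 0 in the others. Psmb11, of the thymus, had at most 8 counts in a library, or 0.317 CPM. Neither was tested.

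Of the 17 structural genes of the regulatory particle, 16 were DOWN in WT. The 6 ATPases, which form the unfolding ring, were all DOWN, with a median of -0.59. Psmc4 changed most among them. It had 128, 122 and 119 CPM in WT PRO and 74.96, 68.3 and 72.1 CPM in WT DIFF, a change of -0.79 on the log2 scale (SE 0.07, adjusted p = 4.2e-06). Psmc1 changed least, from 174.5, 177 and 179.9 CPM to 121, 131 and 145 CPM, a change of -0.43 on the log2 scale (SE 0.08, adjusted p = 0.0010). Both genes were separated between stages, without overlap.

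Among the 11 non-ATPase subunits, 10 were DOWN, with Psmd12 at -0.75 the lowest. Psmd14, the deubiquitinase that cuts the ubiquitin chain from the substrate, had 122.5, 127 and 138 CPM in WT PRO and 72.4, 79.0 and 91.1 CPM in WT DIFF, a change of -0.69 on the log2 scale (SE 0.11, adjusted p = 0.00026). Psmd4, a ubiquitin receptor, had 92.8, 91.6 and 89.55 CPM in WT PRO and 72.0, 67.7 and 77.3 CPM in WT DIFF, a change of -0.35 on the log2 scale (SE 0.07, adjusted p = 0.0013). Neither gene overlapped between stages, and the spread within a stage was wider for Psmd14. Psmd1, a scaffold subunit on chromosome 1 from 86064387 to 86139151 on the plus strand, was the structural gene that did not pass. It had 294, 268 and 296 CPM in WT PRO and 246, 231 and 285 CPM in WT DIFF, a log2 fold change of -0.18 (adjusted p = 0.093), with WT DIFF replicate 3 inside the PRO range. With the WT libraries fitted alone and paired by replicate number its value was -0.19 (adjusted p = 0.048), and without WT DIFF replicate 3 it was -0.26 (adjusted p = 0.029).

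The assembly factors, which chaperone the ATPase ring and are not part of the finished particle, moved apart. Psmd5, on chromosome 2 from 34849734 to 34874968 on the minus strand, was the only member UP. It had 58.3, 62.0 and 62.2 CPM in WT PRO and 75.1, 90.02 and 89.9 CPM in WT DIFF, a change of 0.47 on the log2 scale (SE 0.10, adjusted p = 0.0027), and every WT DIFF library was above every WT PRO library. Psmd9 was DOWN by a log2 fold change of -0.35 (adjusted p = 0.0028), from 33.65 ± 1.18 CPM to 26.6 ± 1.14 CPM (SD, n = 3 each). Psmd10, or gankyrin, which is X-linked (140948429 to 140956728, minus strand), had 15.4, 16.6 and 18.35 CPM in WT PRO and 12.6, 13.35 and 15.9 CPM in WT DIFF. These libraries overlapped, and the log2 fold change of -0.28 did not pass (adjusted p = 0.098), although it did in WT libraries fitted alone and paired by replicate number (-0.28, adjusted p = 0.038).

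The activators, which cap the core in place of the regulatory particle, differed as well. Psme3 encodes the nuclear activator PA28 gamma and lies on chromosome 11 from 101316213 to 101323537 on the plus strand. It had 193, 189.9 and 189 CPM in WT PRO and 92.8, 99.97 and 103 CPM in WT DIFF, a change of -0.96 on the log2 scale (SE 0.07, adjusted p = 1.6e-06). Psme4, which encodes PA200, had 127, 144 and 161.5 CPM in WT PRO and 155, 165.5 and 164.6 CPM in WT DIFF, a log2 fold change of 0.16 (adjusted p = 0.15). The stages were far apart for Psme3 and overlapped for Psme4, and the value of Psme4 was 0.25 without WT PRO replicate 3, where it passed (adjusted p = 0.032), and 0.075 without WT PRO replicate 1.

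All 8 chaperonin genes were DOWN in WT and none overlapped between stages. Tcp1, the alpha subunit, on chromosome 17 from 12915701 to 12925067 on the plus strand, had 444, 449.7 and 477 CPM in WT PRO and 192, 186 and 219 CPM in WT DIFF, a change of -1.21 on the log2 scale (SE 0.09, adjusted p = 1.8e-06). Cct6a, the zeta subunit, had 377, 377 and 398 CPM in WT PRO and 166, 155 and 193 CPM in WT DIFF, a change of -1.18 on the log2 scale (SE 0.10, adjusted p = 4.9e-06). Cct7, the eta subunit, had 235.2, 226 and 235.5 CPM in WT PRO and 113, 96.5 and 121 CPM in WT DIFF, a change of -1.09 on the log2 scale (SE 0.09, adjusted p = 3.8e-06). In each of these genes the DIFF libraries had less than the PRO libraries by a wide margin, and replicate 2 was the lowest of WT DIFF.

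The other chaperonin subunits followed with smaller or noisier changes. Cct8, the theta subunit, had 352, 369 and 402 CPM in WT PRO and 180.2, 161 and 192 CPM in WT DIFF, a log2 fold change of -1.09. Cct3, the gamma subunit, had 287, 293 and 319.5 CPM in WT PRO and 165, 134.5 and 167 CPM in WT DIFF, a log2 fold change of -0.96. Cct2, the beta subunit, had 405, 410.0 and 419 CPM in WT PRO and 216, 205 and 242 CPM in WT DIFF, a log2 fold change of -0.91. Replicate 2 was again the lowest WT DIFF library in all of them. Cct5, the epsilon subunit, had 369.6, 353 and 371 CPM in WT PRO and 243, 157 and 187 CPM in WT DIFF, a log2 fold change of -0.91 with the widest standard error of the ring, 0.14. Cct4, the delta subunit, had 209, 212 and 236 CPM in WT PRO and 119.6, 114 and 142.5 CPM in WT DIFF, a log2 fold change of -0.81. The high DIFF value of Cct5 was that of replicate 1. The smallest fall of a chaperonin gene, that of Cct4, and the largest of a core or structural regulatory gene, that of Psmc4, were -0.81 and -0.79 in WT (SE 0.11 and 0.07), and in the libraries labelled p27KO the smallest chaperonin value, -0.79 for Cct2, was passed by the -0.80 of Psmc4, so that the ranges of the machines met within their errors.

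**Figure D2:**
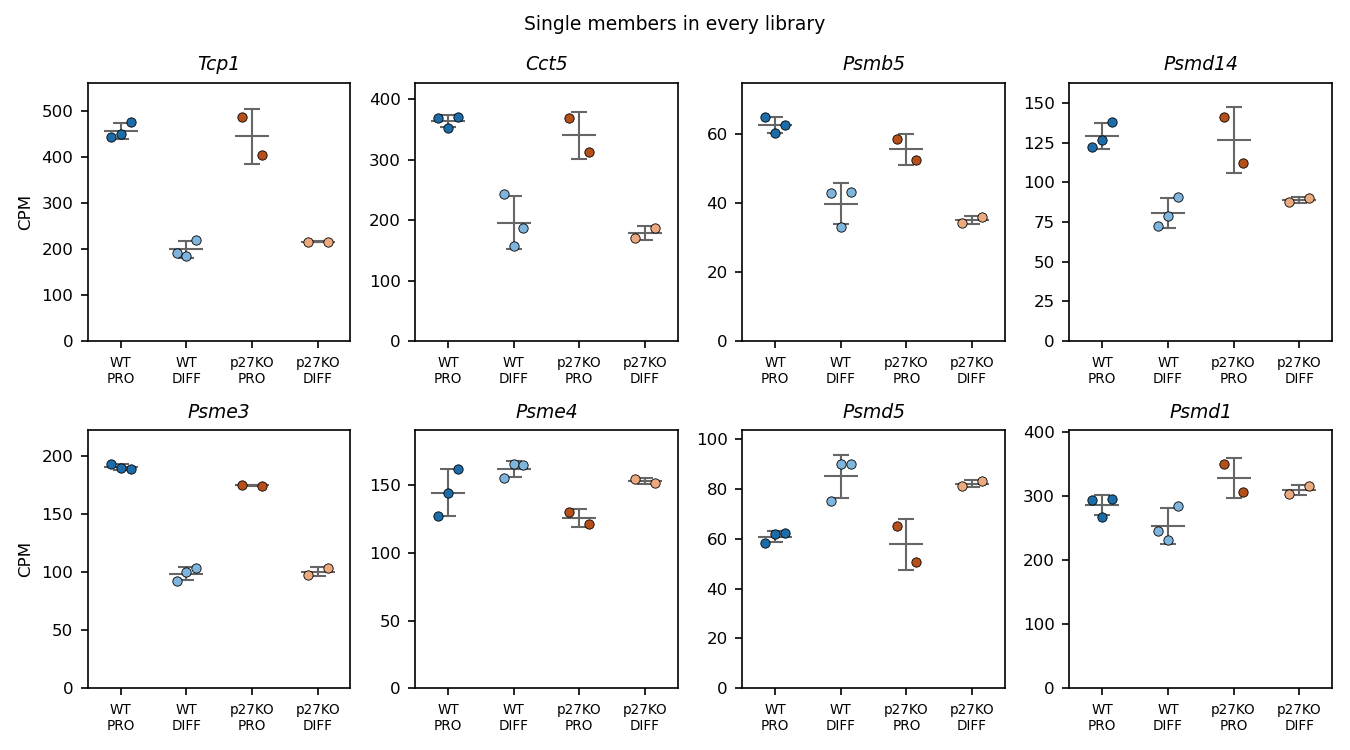
CPM (y axis, from 0) of 8 members in every library (points) of the 4 groups (x axis), with the group mean and SD as grey bars (n = 3 for WT and 2 for p27KO). Tcp1, Cct5, Psmb5, Psmd14 and Psme3 are lower in both DIFF groups, Psmd5 is higher in both, and Psmd1 is higher in the p27KO groups than in WT of the same stage.

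Levels between genes were compared per length, as mean CPM per kilobase of the principal transcript in WT PRO. The core genes had from 37.0 (Psma2) to 137 (Psmb6) CPM per kilobase, and the structural regulatory genes from 47.7 (Psmd11 and Psmd13) to 120.0 (Psmd2). Chaperonin genes had from 88.2 (Cct4) to 210.0 (Cct2), with Cct6a left out since the annotation used gives it no coding transcript. The assembly factors were lower, at 11.7 for Psmd10, 13.0 for Psmd9 and 13.8 for Psmd5, and the activators had 71.6 (Psme3) and 22.2 (Psme4). The order rests on the transcript chosen for each gene.

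The sums of the core and of the regulatory particle were both lower at 2 + 1 DIV. The summed level of the 14 core genes was 1492, 1424 and 1533 CPM in WT PRO and 1044, 964 and 1109 CPM in WT DIFF, and that of the 17 regulatory genes 2565, 2538 and 2578 CPM and 1836, 1779.9 and 1957 CPM. The log2 ratio of core to regulatory sums was -0.79 ± 0.04 in WT PRO, -0.84 ± 0.04 in WT DIFF (SD, n = 3 each), -0.83 ± 0.07 in p27KO PRO and -0.91 ± 0.01 in p27KO DIFF (SD, n = 2 each). The stages overlapped in WT, but between libraries of the same number the ratio was lower at 2 + 1 DIV in all 3 pairs, with differences of -0.033, -0.052 and -0.070. Both p27KO DIFF libraries (-0.90 and -0.92) were below both p27KO PRO libraries (-0.78 and -0.89), the nearest pair by little. The mean change between stages was -0.05 in WT and -0.08 in the libraries labelled p27KO. It was -0.03 in WT without WT DIFF replicate 2, without WT PRO replicate 3, and without the genes that share sequence or the genes with overlapping exons (in the last case -0.05 in the libraries labelled p27KO). It was -0.018 in WT and -0.04 in the libraries labelled p27KO as a mean of log2(CPM + 1) over genes, and -0.026 and -0.13 in the libraries labelled p27KO without p27KO PRO replicate 1 and replicate 2. The 8 chaperonin genes summed to 2679, 2690 and 2857 CPM in WT PRO and 1395, 1210.0 and 1464 CPM in WT DIFF. Their ratio to the sum of core and regulatory genes was 0.678 ± 0.017 in WT PRO and 0.468 ± 0.023 in WT DIFF (SD, n = 3 each), and 0.659 ± 0.019 and 0.478 ± 0.010 in p27KO PRO and DIFF (SD, n = 2 each). The PRO and DIFF libraries did not overlap in this ratio in either genotype. This second ratio and the paired differences were added after the data were seen, and neither ratio was tested.

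**Figure D3:**
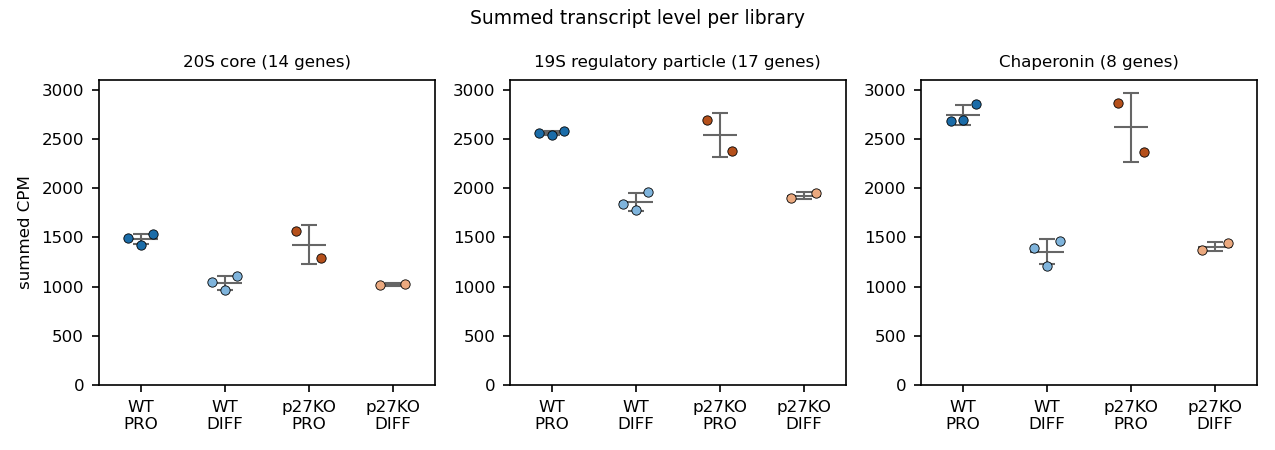
Summed CPM (y axes, from 0) of the 14 core, 17 structural regulatory and 8 chaperonin genes in each library (points) of the 4 groups (x axis), with mean and SD as grey bars. In all 3 panels the DIFF libraries lie below the PRO libraries, and the p27KO PRO libraries are the furthest apart.

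**Figure D4:**
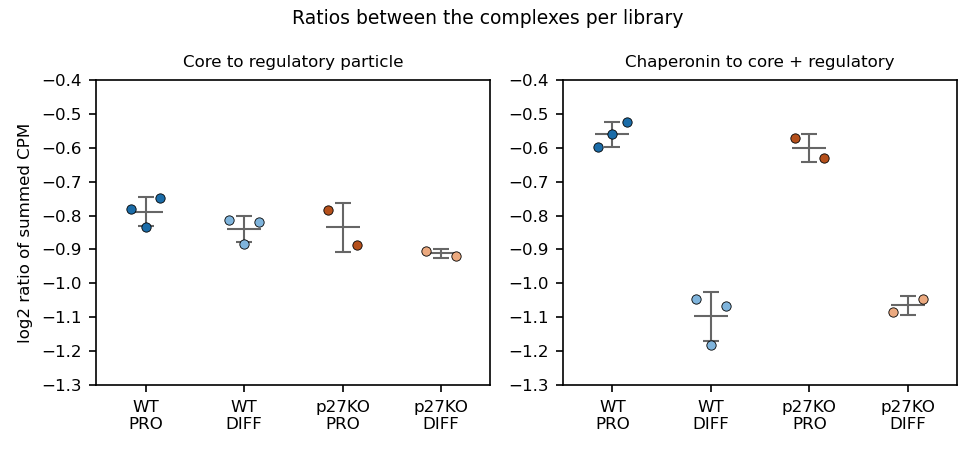
Log2 ratio of summed CPM (y axes) of core to regulatory genes (left) and of chaperonin to core and regulatory genes (right) in each library (points) of the 4 groups (x axis), with mean and SD as grey bars. The first ratio overlaps between WT stages, and the second is lower in every DIFF library, by 0.54 on average in WT and 0.46 in libraries labelled p27KO.

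In the libraries labelled p27KO, 40 members were DOWN, 1 was UP and 3 did not pass, against 30.2% DOWN and 27.5% UP among all genes. For 40 members both DIFF libraries lay below both PRO libraries, against 39.8% of all genes. The medians were -0.50 for core, -0.52 for structural regulatory and -0.93 for chaperonin genes, against -0.03 for all genes. Tcp1 had 488 and 404 CPM in PRO and 215 and 216.5 CPM in DIFF, the largest fall (-1.07, standard error 0.11, adjusted p = 3e-05). Cct7, with 226 and 201 CPM against 104 and 117 CPM, followed at -0.98, and Cct5, with 368 and 313 CPM against 171 and 187 CPM, at -0.95. In these 3 genes the stages were separated and the PRO libraries were further apart than the DIFF libraries.

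The catalytic subunits fell in the libraries labelled p27KO too. Psmb5 had 58.5 and 52.3 CPM in PRO and 34.2 and 35.8 CPM in DIFF (-0.69, adjusted p = 0.0011), Psmb6 changed by -0.64 and Psmb7 by -0.48 on the log2 scale. Psmd14 had 141.5 and 112 CPM in PRO and 87.8 and 90.4 CPM in DIFF (-0.53, adjusted p = 0.0056), and Psme3 175.2 and 174.7 CPM in PRO and 97.6 and 103 CPM in DIFF (-0.83, adjusted p = 3e-05). Psmd5 had 65.0 and 50.6 CPM in PRO and 81.1 and 83.2 CPM in DIFF (0.48, adjusted p = 0.0092). The stages did not overlap for any of these genes, and for Psmd5 the call was lost without p27KO PRO replicate 2 (0.33, adjusted p = 0.064). Psmd1 (-0.11), Psmd10 (-0.09) and Psme4 (0.26, adjusted p = 0.071) did not pass, and without p27KO PRO replicate 1 the value of Psmd10 turned to 0.14 and that of Psmd1 was -0.030. Without p27KO PRO replicate 2 that of Psmd1 was -0.18.

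Libraries of a group were uneven over these genes. Of the 44 members, 38 were higher in p27KO PRO replicate 1 than in replicate 2, by a median of 0.25 on the log2 scale, or 0.21 after scaling, against 0.07 for all genes. In WT DIFF, 4 members were higher in replicate 2 than in replicate 3 (median -0.19, or -0.14 after scaling, all genes -0.04), and 8 were higher in replicate 1 than in replicate 3. Without p27KO PRO replicate 1 the regulatory median in the libraries labelled p27KO was -0.35, and the number of members DOWN there was between 30 and 40 with each library of the series left out in turn, the lowest without p27KO DIFF replicate 1. The Psmc1 call in the libraries labelled p27KO (-0.37) was lost without p27KO DIFF replicate 1 (adjusted p = 0.074) or p27KO PRO replicate 1 (adjusted p = 0.060).

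Genotypes were compared next. The stage change of 0 of the 44 members differed between genotypes by the interaction test, against 0.389% of all genes, with 0 members at an unadjusted p under 0.05, where 4.31% of all genes lay, and 0 by DESeq2. The fitted difference in stage change was between -0.09 (Psma2) and 0.24 (Cct6a), with medians of -0.01 for core, 0.03 for structural regulatory and 0.11 for chaperonin genes. These medians rested on single libraries, and were -0.10, -0.04 and 0.013 without p27KO PRO replicate 2 and 0.13, 0.12 and 0.21 without p27KO PRO replicate 1. Its 95% interval lay within 0.5 of 0 for 36 members and reached from -0.54 to 0.67 over all of them. The adjusted test also missed larger differences, such as 1.70 for the cycling marker Top2a (adjusted p = 0.085), so that missing it does not show equal changes. The 6 cycling markers had differences between 1.38 and 1.70, of which 2 (Aurkb and Mki67) passed. Of the 50 genes called in the interaction over the whole table, 0 were called without WT PRO replicate 2 or 3 or without any 1 of the libraries labelled p27KO.

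At each stage the levels were also set side by side. In neurospheres 0 members differed between genotypes, against 0.0156% of all genes, and at 2 + 1 DIV 0 members differed, against 2.04% of all genes. DESeq2 called 0 members in both. All 6 cycling markers were higher in p27KO DIFF than in WT DIFF, with log2 fold changes between 1.43 and 1.84. Median genotype differences at 2 + 1 DIV were -0.06 for core, 0.03 for structural regulatory and 0.06 for chaperonin genes (-0.083, 0.020 and 0.0081 without WT DIFF replicate 2, and -0.018, 0.060 and 0.12 without WT DIFF replicate 3), with single 95% intervals between -0.45 and 0.52. Psmd1 was the 1 member with an unadjusted p under 0.05, at both stages, a smaller share than the 4.69% and 14.8% of all genes at that threshold in neurospheres and at 2 + 1 DIV, and is described with its values in view. It had 351 and 307 CPM in p27KO PRO and 304 and 316 CPM in p27KO DIFF, in each case above every WT library of the same stage. The log2 differences were 0.23 in neurospheres (0.15 without p27KO PRO replicate 1) and 0.30 (standard error 0.10) at 2 + 1 DIV, where the adjusted p was 0.19. Psmd10, on the X chromosome, differed by -0.16 and 0.03, and both values changed sign when 1 library was left out.

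Genes around these machines were followed with lists of known partners, whose counts stand against the 33.9% DOWN and 33.5% UP of all genes in WT, and 30.2% and 27.5% in the libraries labelled p27KO. Of 12 proteasome partners, which include assembly chaperones of the core and proteins that bind the regulatory particle, 9 were DOWN and 1 UP in both genotypes. Their median was -0.66 in WT and -0.72 in the libraries labelled p27KO. Uchl5, a deubiquitinase of the particle, went from a mean of 42.0 to 17.04 CPM in WT (-1.31, adjusted p = 1.6e-05), Psmg4, an assembly chaperone, from 9.78 to 4.42 CPM (-1.16), and Psmg1, another, from 23.0 to 11.5 CPM (-1.004). Psmf1, an inhibitor of the proteasome, rose from 24.1 to 34.5 CPM (0.51, adjusted p = 0.0010). The 9 partners that were DOWN moved in the direction of most subunits, and Psmf1 was the 1 that was UP. Ecpas and Akirin2 did not pass (-0.04 and 0.06 in WT).

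The inducible subunits replace the catalytic ones in immune cells and were low. Psmb8 and Psmb9 had means under 1 CPM in every group and were not tested, and Psmb10 averaged 6.74 CPM in WT PRO and 7.50 CPM in WT DIFF, a log2 fold change of 0.14 (adjusted p = 0.39). Psme1, a subunit of the activator PA28 alpha beta, averaged 21.4 CPM in WT PRO and 29.5 CPM in WT DIFF and was UP (0.45, adjusted p = 0.00054), whereas Psme2, its partner, had -0.07. In the libraries labelled p27KO 0 of these 3 tested genes passed, with 0.01 for Psme1, and the difference of -0.44 for Psme1 did not pass the interaction test (adjusted p = 0.36).

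Prefoldin hands unfolded actin and tubulin to the chaperonin, and phosducin-like proteins and Txndc9 bind the chaperonin as cofactors. Of 9 such genes, 7 were DOWN and 1 UP in WT, and 5 were DOWN and 1 UP in the libraries labelled p27KO (all genes 33.9% and 30.2% DOWN). Pfdn4, a prefoldin subunit, had the largest fall in WT (from 24.5 to 9.48 CPM, -1.38), followed by the phosducin-like Pdcl3 (57.5 to 36.9 CPM, -0.65) and Pfdn2 (52.95 to 34.1 CPM, -0.65), and Pdcl, a relative of Pdcl3, rose from 66.9 to 89.6 CPM (0.41, adjusted p = 0.0015). Of 14 actin and tubulin genes, the main clients, 11 were DOWN and 2 UP in both genotypes, with medians of -1.496 and -1.338. Tuba1c (-3.39, SE 0.70), Tuba1b (from 744 to 83.8 CPM, -3.17, SE 0.19) and Tubb6 (-3.08, SE 0.21) fell most in WT by fitted value, in an order within their errors. Tuba1c was low and uneven in WT PRO (9.22, 11.3 and 31.8 CPM), the high value being that of replicate 3. Actb, the cytoplasmic beta actin, went from 2479 to 1078 CPM (-1.21). Tuba4a (2.98) and the neuronal Tubb3 (1.29) rose. Tubb4b was higher in p27KO DIFF than in WT DIFF (0.77, adjusted p = 0.0067).

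Heat shock chaperones, which act with and beside the chaperonin, mostly fell. Of 13 tested, 10 were DOWN and 2 UP in WT, and 9 and 1 in the libraries labelled p27KO. The mitochondrial chaperonin Hspd1 went from 683 to 253 CPM in WT (-1.445, adjusted p = 1.1e-05), the Hsp70 and Hsp90 adaptor Stip1 from 290.1 to 132 CPM (-1.15), the mitochondrial lid Hspe1 from 174 to 81.1 CPM (-1.12), and the constitutive Hspa8 from 2546 to 1293 CPM (-0.99). The stress-inducible Hspa1a (1.00) and Hspa1b (0.72) rose in WT from means of 1.33 and 2.27 CPM.

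Ubiquitin genes and shuttle factors had no member UP. In both genotypes 8 of 13 were DOWN and 0 UP, against 33.9% DOWN and 33.5% UP of all genes in WT and 30.2% and 27.5% in the libraries labelled p27KO. Rps27a, which encodes ubiquitin fused to a ribosomal protein, went from 164 to 70.5 CPM in WT (-1.23). The shuttle factor Ubqln4 fell from 100.8 to 50.6 CPM (-1.005), whereas the polyubiquitin gene Ubb and the segregase Vcp did not pass. Of 9 regulators of proteasome gene transcription, 4 were DOWN and 3 UP in WT, near the shares of all genes (33.9% and 33.5%), and 4 and 1 in the libraries labelled p27KO (all genes 30.2% and 27.5%). In WT, Hsf1, the heat shock factor, went from 23.7 to 13.96 CPM (-0.78) and Ddi2, a protease that activates Nfe2l1, from 125 to 82.6 CPM (-0.61), while Ngly1, which removes sugars from Nfe2l1, rose from 25.2 to 38.1 CPM (0.59). Nfe2l1 itself, the main activator of proteasome genes when the proteasome is impaired, had 198 CPM in WT PRO and 176 CPM in WT DIFF (-0.18, adjusted p = 0.13), and Nfe2l2 had -0.05.

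**Figure D5:**
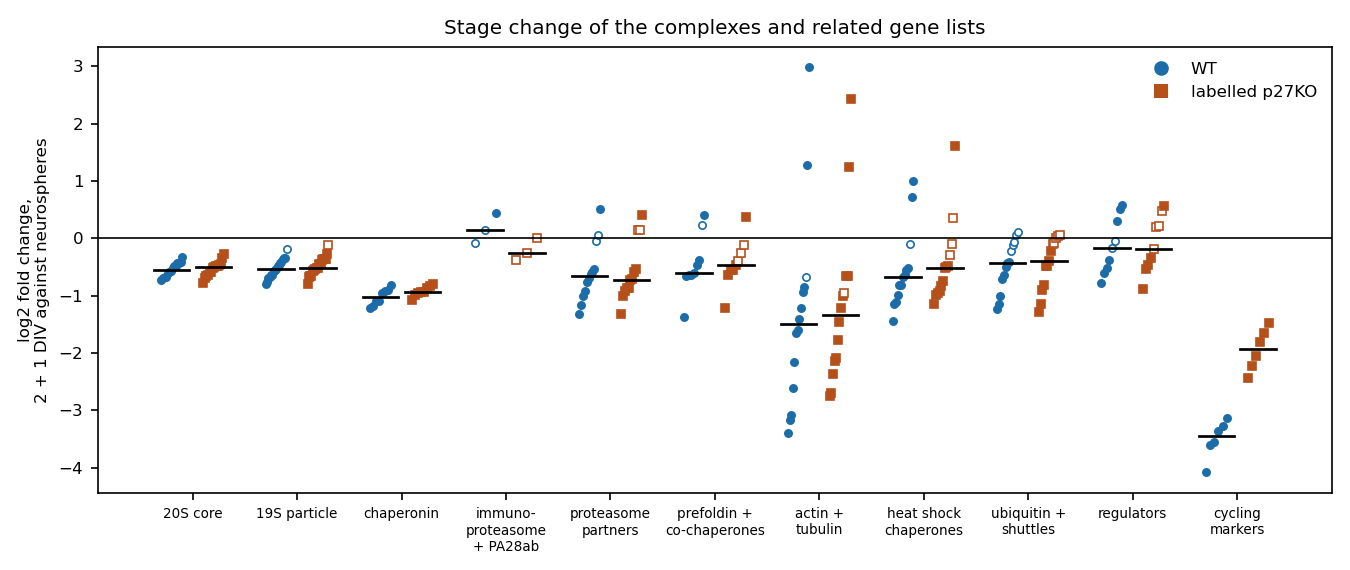
Log2 fold change from neurospheres to 2 + 1 DIV (y axis) of single genes in the core, the regulatory particle, the chaperonin and related lists (x axis), in WT (circles) and libraries labelled p27KO (squares); filled symbols passed the test and black lines are medians. The core, regulatory and chaperonin genes form narrow groups with WT medians of -0.54, -0.54 and -1.02, and the actin and tubulin genes spread from -3.39 to 2.98 in WT.

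The promoters of these genes were examined since most members moved together. RefSeq windows (GRCm38.p6) of 250 bases before to 50 bases after a start were found for 38 member genes, as 42 windows. Psma8, Psmc3, Psmb7, Psmd7, Psmd3, Psmb1, Cct4 and Psmb2 had none in the table used. Each motif was searched on both strands, and matches of different motifs overlapped in 0 of the member windows. The ETS site CCGGAAGT, bound by factors such as GABP in many housekeeping genes, occurred in 11 of 42 member windows (26.2%) and in 3.89% of 32851 windows of all genes. The core of the antioxidant response element, TGACNNNGC, which Nfe2l1 and Nfe2l2 bind, was in 9 windows (21.4%, all windows 12.4%). The NF-Y box CCAAT was in 17 (40.5%, all windows 37.4%), the E-box CACGTG in 3 (7.14%, all windows 7.15%) and the heat shock element core GAANNTTC in 2 (4.76%, all windows 7.86%). A match is a description of these letters and not a bound site. The windows of all genes belong to 27025 genes, more than the 12859 tested, and shares among tested genes alone were not taken. Whether a match goes with the stage change was not tested.

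The 7 ETS matches that lay with 10 flanking bases wholly before a start belonged to 6 genes, and these are shown on the strand of the gene, with the match in capitals (ACTTCCGG is the same site on the other strand). The starts are those of RefSeq. By the annotation used for the counts, the Cct8 sequence and the first of Psmc2 lie before the gene, those of Psmc1 and Psmd12 and the second of Psmc2 lie inside it, and those of Psmd6 and Psme4 span its start. Of these genes Cct8, Psmc1, Psmc2, Psmd12 and Psmd6 were DOWN in WT and Psme4 was not.
Cct8, chr16:87495889-87495916, minus: ggcggggcgaCCGGAAGTagggggacgc
Psmc1, chr12:100110163-100110190, plus: tggtggatgcACTTCCGGcggtggcgat
Psmc2, chr5:21785180-21785207, plus: accagtgagcACTTCCGGgatggggctc
Psmc2, chr5:21786712-21786739, plus: gcgcggagctACTTCCGGtggggaagag
Psmd12, chr11:107479500-107479527, plus: tgagcgggcgACTTCCGGtgcgagtgac
Psmd6, chr14:14120973-14121000, minus: agagacgcgaCCGGAAGTcagactggcg
Psme4, chr11:30771712-30771739, plus: tggccccgccCCGGAAGTgacttgaggc

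Matches to the antioxidant response element core are shown for the catalytic subunit Psmb5 and for the chaperonin genes that hold one before a RefSeq start, with the match in capitals. By the annotation used for the counts, the Psmb5 match lies before the gene, and those of Tcp1, Cct2 and Cct6a lie inside it.
Psmb5, chr14:54618024-54618052, minus: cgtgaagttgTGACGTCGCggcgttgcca
Tcp1, chr17:12916290-12916318, plus: tgtctctagtTGACCCAGCgtcccgcagc
Cct2, chr10:117063522-117063550, minus: tgggaccgggTGACCGAGCtctccgcgcg
Cct6a, chr5:129787231-129787259, plus: agatgcgcaaTGACGTCGCaactgggcgt

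Some members share sequence with other genes, so that the estimated counts could be divided between them. Of the stretches of 50 bases in its exons, Psmb5 shares 54.1% with other genes (Gm3375, Mir686 and Psmb5-ps, each at most 0.865 CPM in any library), and Psma5 shares 49.96%, mainly with Gm8394 and Gm12989 (at most 0.738 CPM). Psma3 shares 15.4% of its stretches, with Gm13835 among others, which averaged 38.3 CPM in WT PRO and 21.5 CPM in WT DIFF. Exons of 13 members overlap those of another annotated gene, and the sources do not say whether counting used the strand. Tcp1 overlaps Mrpl18, which went from 56.3 to 21.8 CPM in WT, and Acat3, which went from 0.58 to 2.60 CPM. It shares 13.9% of its stretches with Acat3, Acat2 (233 and 50.9 CPM in WT PRO and DIFF) and others. Cct6a shares 15.4% of its stretches and overlaps Psph (28.35 and 35.2 CPM). Cct7 overlaps Pradc1 (11.55 and 3.43 CPM). Cct8 overlaps Usp16 (49.3 and 47.3 CPM), and Psmd1 overlaps Htr2b and Gm21972, which had at most 1.07 CPM. Their part in the results was not tested beyond leaving genes with at least 10% of stretches shared, or with overlapping exons, out of the ratios.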

How the data were processed

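RNA was sequenced from 10 cultures in 4 groups. The authors aligned reads to the Ensembl mouse transcriptome (GRCm38) with STAR and estimated counts per gene with RSEM (versions not stated), and the estimated counts deposited are whole numbers that were not normalized. Ensembl identifiers were matched to symbols and positions with GENCODE vM21. Genes under 1 CPM in at least 4 of 10 libraries were discarded, as in the study's methods, which left 12859 genes. All libraries were fitted as 4 groups with edgeR 4.0.16 (TMM scaling, robust quasi-likelihood test, two-sided, Benjamini-Hochberg adjustment, threshold 0.05) in R 4.3.3. Standard errors and 95% intervals come from this fit, and CPM values use library totals without TMM factors. The steps were tested on simulated data.

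Members, lists and tests were chosen with earlier results of these data known. Named were the 3 members with the largest change each way past the threshold in each stage comparison, catalytic subunits, Psmd14, Psmd4, the ATPases with the largest and smallest WT change, activators, Psmd10, chaperonin genes, Psma8 and Psmb11, and up to 3 genes per list by WT change; Psmd1 and other list genes were named after their values were seen. Alternatives were DESeq2 1.42.0, other scalings, filters and sets of libraries, thinned counts, a replicate block and each library left out. The deviations from group means of WT PRO and DIFF libraries with the same number correlated at 0.248, 0.301 and 0.396. Those of other pairs correlated at -0.222 to -0.087. Deviations sum to 0 within a group, so that these values depend on each other. From them, numbers were taken to pair WT libraries, without a label that says what they mark. For p27KO the value was -0.138 for the same number and 0.138 for the other pairs. With 2 libraries per stage these are opposite by construction. No replicate was a copy of another (chi-square per gene 14.8 to 64.5, where 1 is sampling noise). Paaf1 was not analysed here. Some genes of the ubiquitin list that the rule would name are not reported here.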

Additional observations from a re-analysis of the deposited data

How the results depend on the processing

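In WT 40 to 42 members were DOWN under every alternative, and in the libraries labelled p27KO 30 to 40, and no called member changed sign. No member was called in the interaction or between genotypes under any alternative. The number UP was 1 to 2 in WT with a library left out (Psme4 added without WT PRO replicate 3) and 0 to 2 in the libraries labelled p27KO, where it was 2 with DESeq2 and with the fit limited to p27KO libraries, Psme4 passing as well. With each library left out, Psmd10 ranged from -0.28 to 0.14 in its stage change in p27KO, from -0.38 to 0.032 between genotypes in neurospheres and from -0.028 to 0.12 at 2 + 1 DIV. The log2 ratio of chaperonin to proteasome was also taken without genes that share at least 10% of their 50-base words, and without genes with overlapping exons. Its fall was then -0.46 and -0.39 in WT and -0.41 and -0.37 in p27KO, where the mean of log2(CPM + 1) also gave -0.41. These settings and the crossed block were chosen after seeing the data, and fewer genes enter the first ones. With the replicate block 40 members were DOWN and 1 UP in each genotype, as with the p27KO numbers crossed; in WT alone with the block 42 were DOWN, Psmd1 and Psmd10 being added, and the block changed no other call of a named result. At these depths precision is set by the spread between 2 or 3 libraries, apart from Psma8 and Psmb11, where counts were too few to test.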
